A study of Homo sapiens and Mus musculus with 16 samples.

Results

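The genes described here encode the proteins of the mitochondrial ribosome. They were taken as every gene of the mRNA table whose symbol reads MRPL or MRPS followed by a number and, where present, a letter from A to C, which gave 76 of 22314 genes, 47 of the large subunit and 29 of the small subunit by symbol. Cells of the human liver cancer line SK-HEP-1 were given an ethanol extract of the fruiting body of the fungus Antrodia cinnamomea (AcFBE, 0.5 mg/ml) or DMSO, its vehicle, for 2 or 4 h. The libraries are named 2U and 4U (DMSO) and 2T and 4T (AcFBE). Poly(A) RNA of each condition was sequenced on the SOLiD 3 platform as 1 library, so there is no replicate, no test and no error for any value below. All 4 libraries come from 1 established line grown in culture, and no untreated zero-time sample was analysed here.

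Expression was given as FPKM, fragments per kilobase of exon scaled to the fragments mapped in the library, a unit that allows levels of different genes to be compared per length. Where 4 values are given for a gene, they follow the order 2U, 2T, 4U, 4T. The summed FPKM of the table lay between 786224 and 845681 per library, and the table gives no number of reads behind a value. The number of genes above 0 ranged from 8454 in 2T to 10691 in 2U, but the 2 h libraries list values down to 0.0001 FPKM and the 4 h libraries none above 0 and below 0.20, so these counts rest on different floors. Of 8 hepatocyte markers, ALB, APOA1, APOB, TTR, TF and FGB were listed at 0 in all 4 libraries, AFP was at most 0.621 FPKM, and SERPINA1 stood at 8.59 to 18.7. Of 7 endothelial markers only ENG was above 0 (8.65 to 24.8). Of the mesenchymal markers, VIM stood at 6465 to 13625 FPKM, SPARC at 680.3 to 1073 and FN1 at 4.92 to 14.5, while COL1A2 was listed at 0 and COL1A1 was at most 0.271. Of the epithelial markers, KRT18 stood at 4581 to 6254 FPKM and KRT8 at 1291 to 3439, while EPCAM was at most 0.396. Most defining hepatocyte markers were thus listed at 0 in a line labelled as liver.

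The mitochondrial ribosome translates the few messenger RNAs that are made from mitochondrial DNA, all of which encode subunits of the respiratory chain and of ATP synthase. Its RNAs are encoded by mitochondrial DNA, but its proteins are encoded by nuclear genes, made in the cytosol and imported. Some descend from bacterial ribosomal proteins and carry their numbers, while others have no bacterial counterpart and belong to mitochondria alone. The small subunit holds the mRNA and reads the codons, and the large subunit joins the amino acids and passes the new chain through a tunnel towards the inner membrane.

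The members lay on 21 chromosomes of GRCh37, and their levels spread widely. Of the 76, 71 were above 0 in all 4 libraries and 66 were at 1 FPKM or more in all 4. By their mean over the libraries, 21 members stood under 10 FPKM, 37 between 10 and 100 and 18 at 100 or more. Small subunit genes made up 11 of the 21 low members. The median level of the 47 large subunit genes was 48.0, 42.5, 42.7 and 41.6 FPKM. The median of the 29 small subunit genes was 10.1, 13.8, 15.9 and 23.8 FPKM in the same order. The large subunit median was thus the higher one in each library, and the small subunit median was higher with AcFBE than with DMSO at both times. The summed level of the small subunit went the other way, at 2050.2, 1740.1, 2142 and 1857 FPKM. At 2 h, 14 of its 27 genes with a ratio were lower with AcFBE. The lower median of the small subunit sat with its genes that have no bacterial homologue, whose median was between 7.27 and 17.9 FPKM, beside 64.8 to 77.0 for its 15 genes with one.

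**Figure D1:**
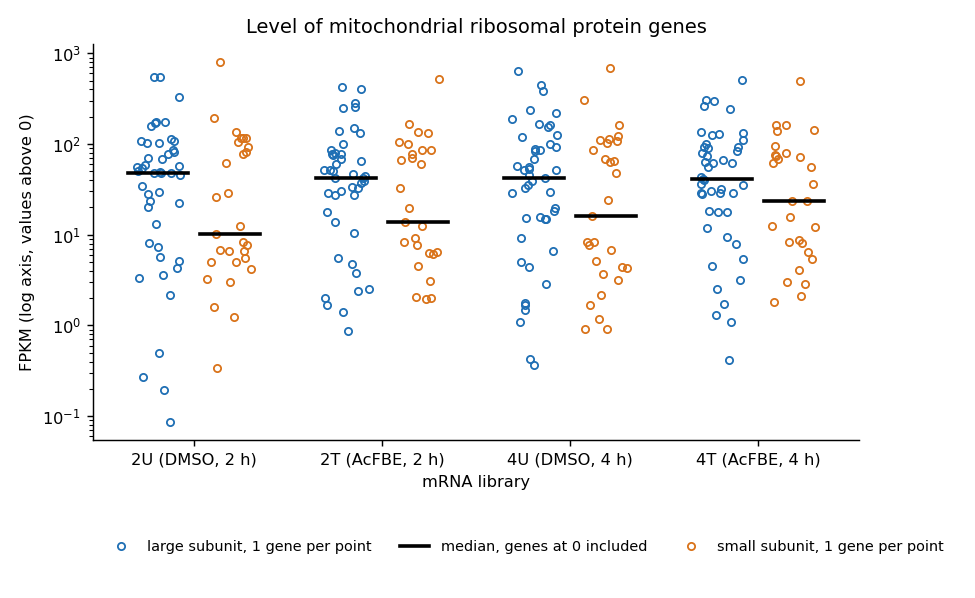
Each point is 1 gene, its level in FPKM on a log axis, in the 4 mRNA libraries (blue, large subunit; orange, small subunit), and the black bars are medians that include genes at 0, which have no point. The large subunit medians lie between 41.6 and 48.0 FPKM, while the small subunit medians go from 10.1 in 2U to 23.8 in 4T.

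The summed level of the members was 5793, 5121, 6157 and 5512 FPKM. These sums were 0.709, 0.651, 0.728 and 0.667% of all FPKM. Both treated libraries therefore held a lower sum than both untreated ones, with a log2 ratio of -0.18 at 2 h and -0.16 at 4 h. The 2T sum counts MRPS12 and MRPL55, which were listed at 0 in that library alone, and without them the ratio at 2 h was -0.10 and at 4 h -0.11. The 4 h difference took the opposite sign (0.14) once the libraries were scaled to the same median. As the RNA came from a whole culture, a change in the mix of cells and a change in RNA per cell cannot be told apart.

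A handful of members made up much of the sum, and 37.5% of the mean level came from 5 genes. The highest was MRPS24 (chr7:43906157-43909492, minus strand), the counterpart of a bacterial protein at the mRNA entry site, with 803, 516, 686 and 494 FPKM. It was lower in both treated libraries, with log2 ratios of -0.64 and -0.47. It overlaps the readthrough gene URGCP-MRPS24 in the annotation, and how the reads of the pair were divided is not given in the sources used here. MRPL27 (chr17:48445218-48450568, minus strand), whose bacterial counterpart lies beside the peptidyl transferase centre, followed with 549.9, 427, 382 and 511 FPKM in 2U, 2T, 4U and 4T. Its log2 ratio was -0.37 at 2 h and 0.42 at 4 h, and its treated and untreated values overlapped. MRPL37, a large subunit protein found only in mitochondria, stood at 542, 247, 450.5 and 263 FPKM, and MRPL23, a protein at the mouth of the exit tunnel, at 176, 282, 221 and 246 FPKM.

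At 2 h, AcFBE and DMSO libraries gave a log2 ratio for 69 members, those above 0 in both and with a mean of at least 1 FPKM. Their median was -0.11, beside 0.00 over all 5063 genes compared. A difference of at least 2-fold, the size used here to call a gene, was seen upwards in 13 members (18.8%), where 21.8% of all genes were called higher. It was seen downwards in 3 members (4.35%), where 19.3% of all genes were called lower. The share called higher was thus near that of all genes, and the share called lower was smaller. The 13 were MRPL1, MRPL3, MRPL24, MRPL45, MRPL47, MRPS5, MRPS7, MRPS18A, MRPS21, MRPS22, MRPS23, MRPS28 and MRPS31, and the 3 were MRPL10, MRPL37 and MRPS27. MRPL1 and MRPS31 met the filter on low values only through 2T, where they were higher. With at least 1 FPKM required in all 4 libraries, 11 of 66 members were called higher (all genes 18.3%) and 3 lower (all genes 17.4%).

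At 4 h, the median log2 ratio of 73 members was 0.32, whereas that of all 5554 genes compared was -0.35. The members thus lay 0.67 above the table as a whole. Scaling a library moves all its log2 ratios by the same amount, so this difference could change only through the filter on low values. It was 0.65 with the same median and 0.66 with the same total. Calls of at least 2-fold higher were made for 20 members (27.4%) against a background of 16.5% of genes, and calls of at least 2-fold lower for 6 members (8.22%) against 27.8%. The 6 were MRPL4, MRPL12, MRPL28, MRPL54, MRPS2 and MRPS12. The 20 higher members were 10 of 44 large subunit genes (22.7%) and 10 of 29 small subunit genes (34.5%). Just inside the 2-fold limit stood MRPS17 and MRPS36 (log2 ratio 1.0 each), and just outside stood MRPL40 (0.98) and MRPS26 (-0.99). MRPS31 and MRPS36 met the filter on low values only through 4T, where they were higher. With at least 1 FPKM required in all 4 libraries, 17 of 66 members were called higher (all genes 15.3%) and 5 lower (all genes 26.5%).

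The subunits were compared at each time. At 2 h the median log2 ratio was -0.18 for 42 large subunit genes and -0.06 for 27 small subunit genes, a difference of -0.12 (large minus small). At 4 h it was 0.12 for 44 large and 0.57 for 29 small subunit genes, a difference of -0.44. The small subunit median was the higher one at both times. It was not once each ratio was centred on genes of like GC content, as described below. Within the low and within the high GC group it still was at 2 h, but not at 4 h. Within each subunit the ratios spread far more than the subunits differed. The quartiles at 4 h were -0.37 and 0.96 for the large and -0.37 and 1.18 for the small subunit. Counting MRPS18A and MRPS30, whose proteins sit in the large subunit in solved structures, with the large subunit left the 4 h difference at -0.44. The 2 h difference became -0.07 instead of -0.12.

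The GC content of the transcripts moved with these ratios. It was 50.8% at the median for large subunit genes, 46.6% for small subunit genes and 52.9% over genes with a mean of at least 1 FPKM. At 4 h the Spearman rho between GC content and log2 ratio was -0.779 over 73 members and -0.690 over 4672 genes, and at 2 h it was -0.270 over 69 members and -0.250 over 4268 genes. Between libraries of the same treatment the rho was not absent. For 4T against 2T it was -0.556 over 70 members and -0.484 over 4277 genes. For 4U against 2U it was 0.408 over 71 members and 0.269 over 4469 genes. These are descriptions across genes, all of which share the same pair of libraries within a comparison. Members at or below a GC content of 48.0% had a median log2 ratio of 1.0 at 4 h (35 genes, 18 called higher and 0 lower), and those above it -0.31 (38 genes, 2 higher and 6 lower). The same division gave 0.79 and -0.82 over all genes, with 40.8% called higher and 4.27% lower in the low GC group and 3.48 and 41.2% in the high GC group. Within the low GC group, large and small subunit genes were at 1.03 and 1.0 at 4 h, and within the high GC group at -0.31 and -0.46. At 2 h they were at 0.05 and 0.32 in the low GC group and at -0.27 and -0.17 in the high GC group. After each ratio was centred on the median of genes of like GC content, a step added after the data were seen, the large minus small difference was 0.08 instead of -0.12 at 2 h and 0.06 instead of -0.44 at 4 h, and the members' median at 4 h was 0.13. The cause of the relation to GC content was not tested.

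**Figure D2:**
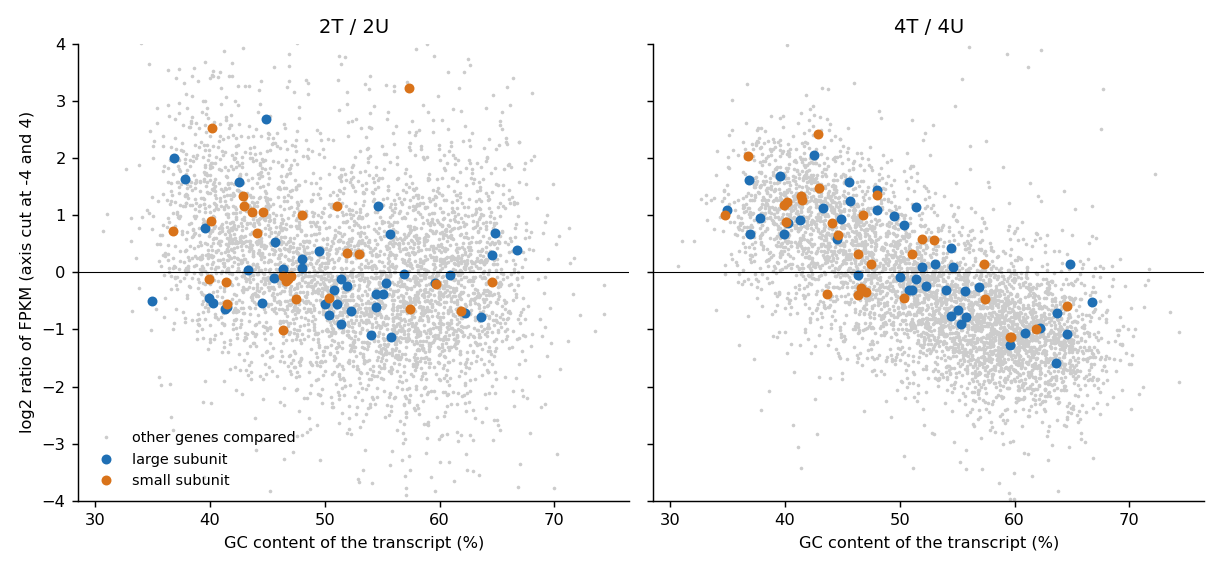
The log2 ratio of treated to untreated FPKM is plotted against the GC content of each gene's transcript, at 2 h (left) and 4 h (right), for other genes (grey), large subunit genes (blue) and small subunit genes (orange). At 4 h the members follow the downward slope of the whole table (rho -0.779, beside -0.690 over all genes), while at 2 h both slopes are weak (-0.270 and -0.250).

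Levels moved with GC content too. Across the 76 members the rho between level and GC content was 0.753 and 0.831 in 2U and 4U and 0.606 and 0.668 in 2T and 4T, and the rho between level and transcript length ran from -0.603 to -0.491. Over the 71 members above 0 in every library the rho with GC content was 0.768 and 0.821 in 2U and 4U and 0.729 and 0.645 in 2T and 4T.

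The members with a known place on the ribosome were then followed one by one. In the stalk of the large subunit, where translation factors bind, MRPL12 (chr17:79670397-79674547, plus strand), which has also been described as a partner of the mitochondrial RNA polymerase, stood at 327, 404, 639.8 and 303 FPKM. The 4U library was the high one, and the log2 ratio was 0.30 at 2 h and -1.08 at 4 h. MRPL10, which anchors the stalk, was at 22.2, 10.4, 14.8 and 11.9 FPKM, lower in both treated libraries (-1.09 and -0.31). MRPL11, at the base of the stalk, was at 54.5, 43.9, 83.5 and 67.4 FPKM, with a log2 ratio of -0.31 at each time.

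Around the exit tunnel the values were less alike. MRPL45 (chr17:36452989-36479100, plus strand), a protein at the mouth of the tunnel that faces the inner membrane, stood at 4.28, 27.3, 15.1 and 29.0 FPKM, so that both treated libraries lay above both untreated ones (log2 ratios 2.68 and 0.94). MRPL24, another protein near the exit, was at 34.9, 78.4, 85.4 and 91.8 FPKM. For this gene only 2U stood apart, and the log2 ratio was 1.17 at 2 h but 0.10 at 4 h. MRPL23 had log2 ratios of 0.69 and 0.15, and MRPL44, which carries a fold of the RNase III family, stood at 3.63, 2.51, 1.68 and 2.53 FPKM with ratios of -0.53 and 0.59. MRPL41 was at 108, 141, 187 and 130.1 FPKM (0.39 and -0.52). No common direction was seen among these proteins of the exit side.

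In the core of the large subunit, MRPL3 (chr3:131181056-131221827, minus strand) was the gene whose ratio was among the highest at both times. It stood at 20.1, 60.0, 15.2 and 63.4 FPKM. The treated values were close to each other and well above both untreated values, with log2 ratios of 1.58 and 2.06. MRPL4 (chr19:10362577-10370731, plus strand), whose bacterial counterpart lines the tunnel, was the opposite case, at 57.4, 33.6, 53.5 and 17.9 FPKM (-0.78 and -1.58), the lowest mean ratio of all members at 1 FPKM or more in every library. MRPL28, also of bacterial descent, was at 58.4, 51.7, 87.1 and 36.1 FPKM (-0.18 and -1.27). MRPL37 (-1.14 and -0.78) and MRPL38 (69.8, 42.5, 56.4 and 28.6 FPKM, -0.72 and -0.98), both without a bacterial homologue, completed the low end of the large subunit. The transcripts of MRPL4, MRPL28, MRPL37 and MRPL38 had a GC content of 63.6, 59.6, 55.8 and 62.2%, and that of MRPL3 had 42.5%.

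In the small subunit, MRPS22 (chr3:138724648-139079339, plus strand), a protein without a bacterial homologue in which inherited defects of mitochondrial translation are known, had the highest mean ratio of all members at 1 FPKM or more in every library. It stood at 7.76, 19.6, 4.44 and 23.8 FPKM, with both treated libraries above both untreated ones (1.34 and 2.42). MRPS18C, the counterpart of bacterial S18, was at 5.03, 8.37, 2.14 and 8.70 FPKM (0.73 and 2.03), the low value being that of 4U. MRPS18A, a relative of MRPS18C whose protein sits in the large subunit in solved structures, was counted here as without a bacterial homologue. It was at 8.31 FPKM in 2U but at 77.7, 86.6 and 96.2 in 2T, 4U and 4T. Its log2 ratio of 3.23 at 2 h, the highest of any member, therefore rested on 2U alone, and 4T against 4U gave 0.15. MRPS26, a protein of the small subunit found only in mitochondria, was at 136, 85.7, 122 and 61.5 FPKM (-0.67 and -0.99).

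**Figure D3:**
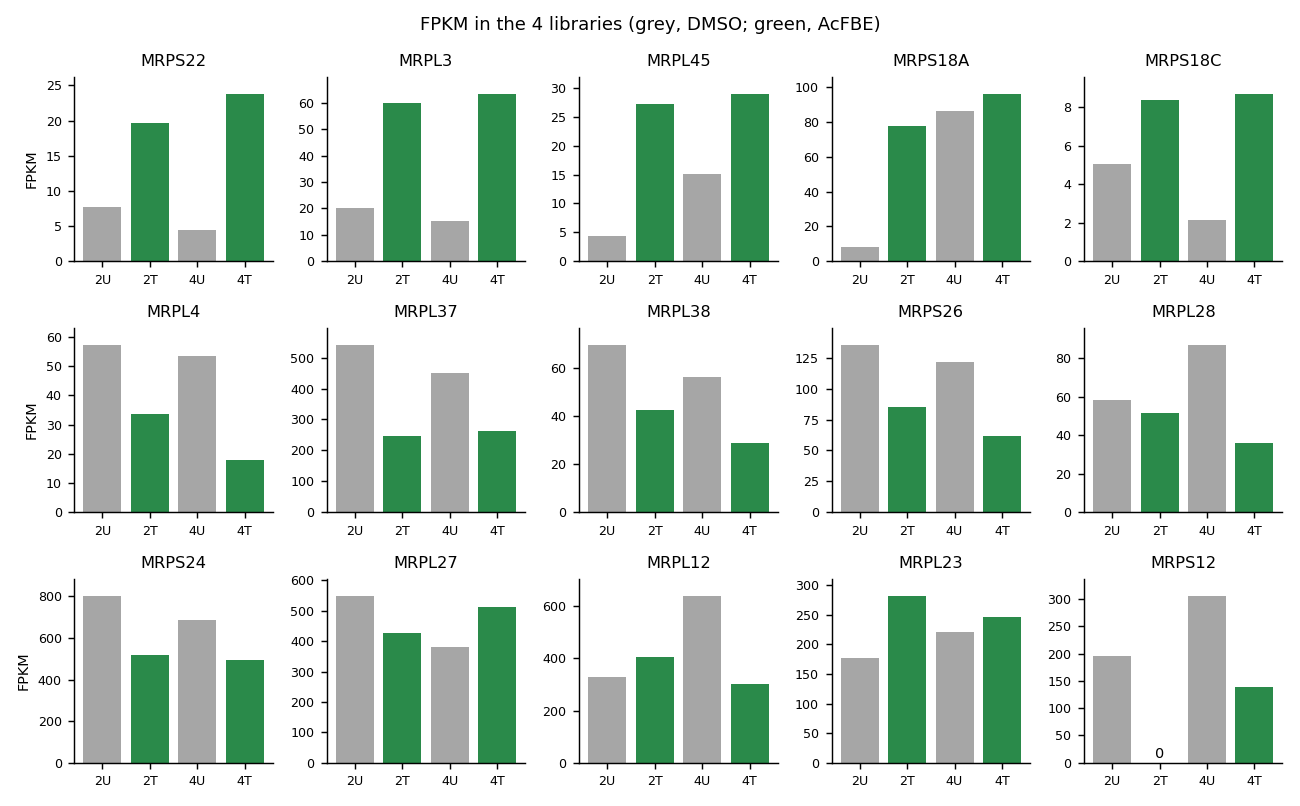
Each panel shows 1 gene, with bars from 0 for its FPKM in 2U, 2T, 4U and 4T (grey, DMSO; green, AcFBE), on an axis of its own. MRPS22 and MRPL3 are higher in both green bars, MRPL4, MRPL37, MRPL38, MRPS26 and MRPL28 are lower in both, MRPS18A is low in 2U alone (8.31 FPKM), and MRPS12 is listed at 0 in 2T.

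Other members with a small subunit symbol and a known role were less alike. MRPS5, the counterpart of a bacterial protein that helps to keep decoding accurate, was at 6.69, 13.8, 15.9 and 12.3 FPKM (1.05 and -0.37), and MRPS7, which organises the head of the subunit, at 61.1, 137, 113 and 142 FPKM (1.17 and 0.33). For both genes 2U was the lowest library. MRPS2 was at 117, 101, 161 and 73.3 FPKM (-0.21 and -1.14) and MRPS34 at 118, 105, 104 and 69.2 FPKM (-0.17 and -0.59). MRPS16, in which an inherited defect of mitochondrial translation is also known, was at 77.0, 69.5, 67.9 and 55.9 FPKM (-0.15 and -0.28). MRPS30, first described in apoptosis and placed in the large subunit in solved structures, was at 6.78, 6.51, 4.28 and 5.34 FPKM (-0.06 and 0.32). Its treated values thus lay within the range of the untreated ones.

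Listed zeros left some ratios without a value. MRPS12 (chr19:39421584-39423808, plus strand), the counterpart of the bacterial decoding-site protein S12, was at 196 FPKM in 2U, 306 in 4U and 139 in 4T but was listed at 0 in 2T. MRPL55 was likewise at 107, 153 and 92.8 FPKM and listed at 0 in 2T. In 2T, 12 genes of the table were listed at 0 while they exceeded 50 FPKM in each of the other libraries, and there were 0 such genes for 2U, 4U or 4T, so a listed 0 in 2T can be a failed estimate and no fold was taken for these genes. MRPL49 was listed at 0 in both 2 h libraries and stood at 28.9 and 31.9 FPKM in 4U and 4T. MRPS36, a protein since placed in the 2-oxoglutarate dehydrogenase complex, was at 1.58, 0, 0.912 and 1.82 FPKM, and MRPL39 at 0.272, 0, 0 and 0.420 FPKM.

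The 2 times were set side by side for 68 members with a ratio at both. Of these, 24 were higher with AcFBE at both times, 23 were lower at both, 16 were lower at 2 h and higher at 4 h, and 5 were higher and then lower. Of all 4865 genes with a ratio at both times, 1375 were higher at both and 1881 lower at both. Another 533 were lower and then higher, and 1076 higher and then lower. Calls of at least 2-fold higher at both times were made for MRPL1, MRPL3, MRPS21, MRPS22, MRPS28 and MRPS31, 6 members or 8.82%, where 8.57% of all genes met the same rule. Calls of at least 2-fold lower at both times were made for 0 members, where 10.5% of all genes met the rule. Pearson's r between the log2 ratios of the 2 times was 0.443 and Spearman's rho 0.485 across these genes, beside 0.466 and 0.477 across 4865 genes of the table. These ratios share no library, but genes are not independent replicates. MRPL1 (0.503, 2.01, 1.77 and 5.44 FPKM) met the filter on low values through its treated library at 2 h. MRPS31 (0.340, 1.96, 0.906 and 2.13 FPKM) did so at both times. Both are counted among the 6.

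**Figure D4:**
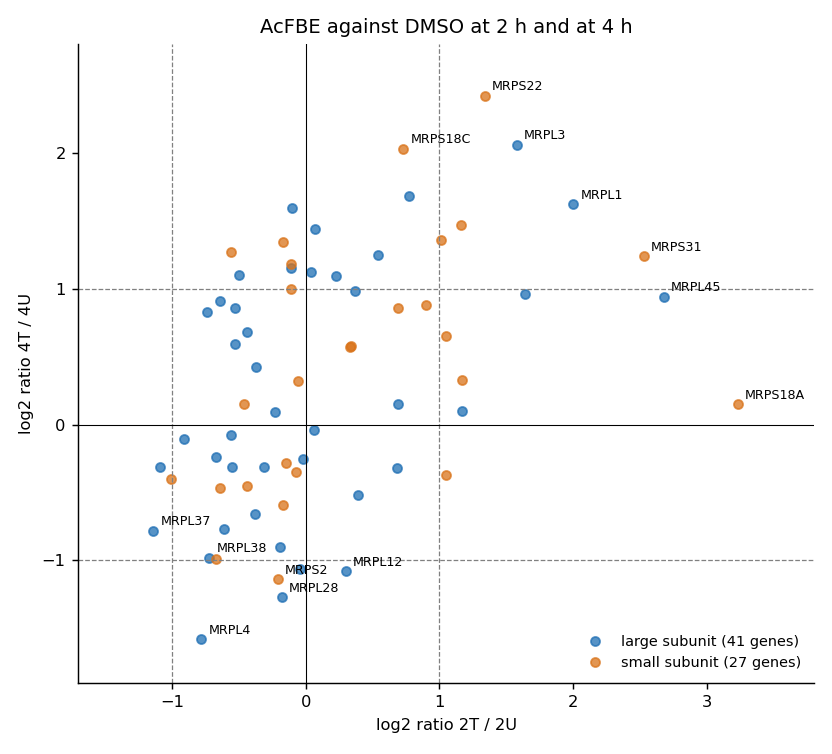
Each point is 1 of 68 genes, with its log2 ratio of treated to untreated FPKM at 2 h on the x axis and at 4 h on the y axis (blue, large subunit; orange, small subunit), and dashed lines mark 2-fold. The upper right corner holds 6 genes past both lines, the lower left corner holds 0, and MRPS18A lies far to the right at 3.23 with 0.15 at 4 h.

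Both treated libraries were above both untreated ones in 23 of the 70 members above 0 in every library with a mean of at least 1 FPKM (32.9%, beside 24.7% of all genes), and below both in 16 (22.9%, beside 33.9%). The small subunit gave 11 above and 5 below among 27, and the large subunit 12 above and 11 below among 43. Among the 16 were MRPL4, MRPL10, MRPL37, MRPS24 and MRPS26, and among the 23 were MRPL3, MRPL45, MRPS18C, MRPS21 and MRPS22.

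Libraries of the same treatment gave the spread against which these differences can be read. Between 4U and 2U, the median log2 ratio of 71 members was -0.23 (all genes 0.13), with 5 members called higher (20.9% of all genes were) and 8 called lower (10.3% of all genes were). Between 4T and 2T, the median of 70 members was 0.11 (all genes -0.08), with 2 called higher (MRPL1 and MRPL33, where 4.07% of all genes were) and 0 called lower (5.25% of all genes were). The typical distance between 2 libraries, the median of the absolute log2 ratio, was 0.30 between the treated libraries and 0.59 between the untreated ones, against 0.55 at 2 h and 0.83 at 4 h between treatments. For the members the distance at 2 h was therefore no larger than that between the untreated libraries, which also differ in time. Over all genes it was larger, at 0.80 against 0.64. These comparisons share libraries with those of the treatments.

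Some values rested on 1 untreated library. The 2U library was at least 2-fold below each of the other 3 in 6 of 70 members, MRPL1, MRPL19, MRPL24, MRPL45, MRPS18A and MRPS31, and 4U was so in 4 members, MRPL15, MRPL30, MRPL48 and MRPS18C. Among all genes of the mRNA table, 2U was low in this way in 10.8% of genes and 4U in 2.33%. Of the 13 members called higher at 2 h, MRPL1, MRPL24, MRPL45, MRPS5 and MRPS18A were also called higher in 4U than in 2U. Both comparisons share 2U, so a low value in 2U raises both ratios. The share of all genes called in both was not counted, so the members cannot be set against it.

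Genes that lie head to head or share sequence with copies may share reads. In the GRCh37 annotation 26 of 76 members (34.2%) had a coding gene that starts within 1000 bp on the other strand, beside 21.1% of expressed genes, and 37 (48.7%) overlapped another coding gene, beside 41.6%. Pseudogenes named after a member were found for 35 members, 8 of them for MRPS21. One such head-to-head pair joins both subunits, MRPL46 (chr15:89002708-89010621, minus strand) and MRPS11 (chr15:89010684-89024007, plus strand), 63 bp apart. MRPL46 was at 50.1, 42.7, 39.1 and 41.6 FPKM and MRPS11 at 118, 87.0, 109 and 80.0 FPKM, with log2 ratios of -0.23 and 0.09 for the former and -0.44 and -0.45 for the latter. Whether strand was used in counting is not given in the sources used here.

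Promoters were read for 67 members from RefSeq (83 windows from 250 bases before to 50 bases after a start, GRCh38.p14), and 6 motifs were sought on both strands. MRPL2, MRPL10, MRPL13, MRPL15, MRPL21, MRPL23, MRPL35, MRPS28 and MRPS36 had no entry. The ETS letters CCGGAAG, a core bound by the ETS family to which GABPA belongs, were in 38.6% of these windows, beside 20.5% of the windows of genes with a mean of at least 1 FPKM and 10.3% of all windows. The YY1 letters AAGATGGCG were in 15.7%, beside 4.31 and 1.75%. The NRF1 letters GCGCANGCG were in 16.9%, beside 14.7 and 7.52%. The GC box GGGGCGG (41.0%, beside 50.4 and 30.8%), the E box CACGTG (10.8%, beside 10.3 and 7.26%) and the TATA letters TATAAA (3.61%, beside 5.43 and 11.5%) were less frequent than, or within 1 percentage point of, expressed genes. The ETS letters end and the YY1 letters begin with AAG, so that the 2 motifs can overlap, and no motif was allowed to differ by a base. A match describes the letters and is not a bound site.

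**Figure D5:**
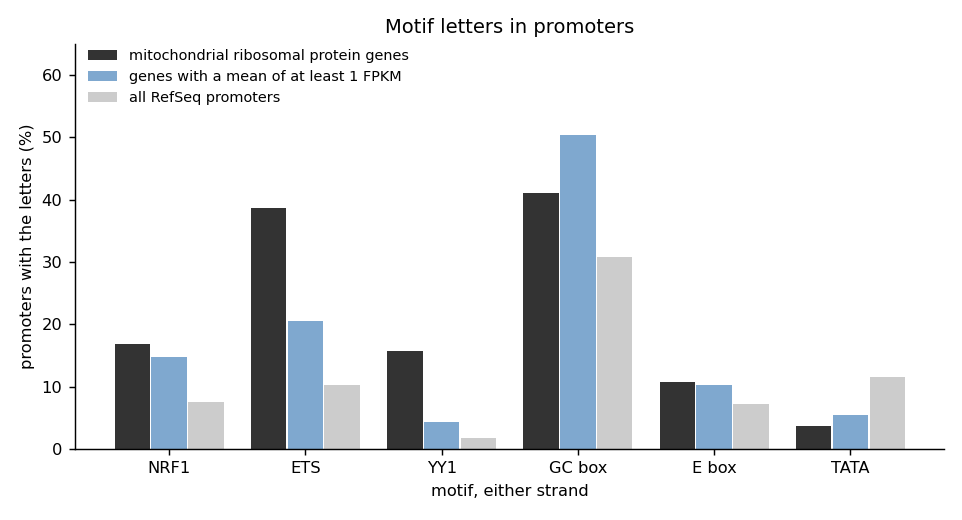
Bars give the percentage of RefSeq promoter windows that hold the letters of each motif on either strand, for mitochondrial ribosomal protein genes (black), genes with a mean of at least 1 FPKM (blue) and all promoters (grey). The ETS bar is 38.6% against 20.5% and the YY1 bar 15.7% against 4.31%, while the NRF1, E box and GC box bars are close to or below those of expressed genes.

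The windows below show these letters in members at both ends of the range of ratios. A gene higher in both treated libraries (MRPL3, MRPS22) can be read beside genes lower in both (MRPL38, MRPS24, MRPS26) and beside MRPS18A. Both MRPS18A and MRPL38 hold the letters of ETS and of YY1, and for MRPL38 only the YY1 window is shown. Further ETS windows of MRPS22 are not shown. Each is 30 bases of GRCh38.p14 read 5′ to 3′ on the strand of the gene, with the motif or its reverse complement in capitals.
MRPL3, ETS (chr3:131502985-131503014, minus strand): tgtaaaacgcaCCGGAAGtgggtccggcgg
MRPS22, ETS (chr3:139343988-139344017, plus strand): cctcccaaccaCTTCCGGcgcaagtggctt
MRPS18A, ETS (chr6:43687804-43687833, minus strand): ggcgctacgttCCGGAAGcggaaatggacg
MRPS18A, YY1 (chr6:43687763-43687792, minus strand): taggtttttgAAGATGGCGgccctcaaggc
MRPL38, YY1 (chr17:75904859-75904888, minus strand): ggccggagggAAGATGGCGgcgccctggtg
MRPS24, YY1 (chr7:43869479-43869508, minus strand): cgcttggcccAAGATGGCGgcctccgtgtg
MRPS26, ETS (chr20:3046004-3046033, plus strand): tccccgcgccgCTTCCGGggcacggtggcg
MRPS12, ETS (chr19:38930928-38930957, plus strand): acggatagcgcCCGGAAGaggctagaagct

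The letters were thus present at both ends of the range. The median log2 ratio of the 28 compared members with the ETS letters was -0.03 at 2 h and 0.53 at 4 h, beside -0.11 (33 members) and 0.15 (36 members) for those without. For the 12 compared members with the YY1 letters it was -0.51 and 0.45, beside -0.04 (49 members) and 0.15 (52 members). For the members with the NRF1 letters it was -0.53 (13 members) and 0.71 (12 members), beside -0.05 (48 members) and 0.15 (52 members). Transcript GC content, with which the 4 h ratios moved, was not compared between members with and without the letters. None of these differences was tested.

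The other genes of the pathway were described from lists. Of the 7 mitochondrial ribosomal proteins named otherwise, 6 were compared at 2 h (median 0.12, 0 called either way) and 7 at 4 h (median 0.36, 1 higher and 0 lower). Over all genes, 21.8% were called higher and 19.3% lower at 2 h, and 16.5 and 27.8% at 4 h. GADD45GIP1, a large subunit protein, was at 335, 547, 213 and 368 FPKM in 2U, 2T, 4U and 4T, higher with AcFBE at both times (0.71 and 0.79), and PTCD3, of the small subunit, was the one called higher at 4 h (3.36, 3.26, 1.03 and 2.60 FPKM). AURKAIP1 was at 139, 199, 286 and 159 FPKM (0.52 and -0.85) and ICT1, a peptidyl-tRNA hydrolase built into the large subunit, at 111, 83.0, 81.2 and 104 FPKM (-0.42 and 0.36).

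The genes that assemble and modify this ribosome had lower medians than its proteins. Their median log2 ratio was -0.66 at 2 h (18 compared, 1 called higher and 4 lower) and -0.73 at 4 h (18 compared, 0 higher and 4 lower). The median over all genes was 0.00 at 2 h and -0.35 at 4 h. The share called lower, 22.2% at each time, was near the 19.3% of all genes at 2 h and below the 27.8% at 4 h. The share called higher, 5.56% at 2 h and 0% at 4 h, was below the 21.8 and 16.5% of all genes. At each time 14 of the 18 had a ratio below 0, beside 2533 of 5063 genes at 2 h and 3371 of 5554 at 4 h. DDX28, an RNA helicase of large subunit assembly, was at 6.41, 3.74, 10.6 and 2.68 FPKM (-0.78 and -1.98), and MTG1, a GTPase of the same process, at 29.0, 17, 25.3 and 8.85 FPKM (-0.77 and -1.51). C7orf30, also an assembly factor, was at 53.9, 66.3, 42.4 and 62.3 FPKM (0.30 and 0.56), and FTSJ2, an rRNA methyltransferase, at 4.68, 5.89, 5.94 and 7.18 FPKM (0.33 and 0.27). GC content was known for 12 of the 18 genes compared, so a check of these ratios against GC content is void for want of values.

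Translation factors of mitochondria, 7 compared at 2 h and 9 at 4 h, had medians of -0.13 (0 higher, 2 lower) and 0.48 (2 higher, 3 lower). For this list and those that follow, the shares over all genes are 21.8% higher and 19.3% lower at 2 h and 16.5 and 27.8% at 4 h, and 1 gene more or less moves the share of so short a list widely. TUFM, the elongation factor that brings aminoacyl-tRNA, was at 112, 121, 274 and 94.7 FPKM (0.12 and -1.54), and TSFM, its exchange factor, at 19.6, 17.8, 14.1 and 20.5 FPKM (-0.13 and 0.54). TACO1, a translational activator of a cytochrome c oxidase subunit, was at 65.5, 22.9, 41.5 and 16.3 FPKM (-1.52 and -1.35), and OXA1L, the insertase that receives the new chains, at 77.2, 152, 108 and 151 FPKM (0.97 and 0.48). The genes of mitochondrial transcription and biogenesis had medians of 0.62 at 2 h (8 compared, 3 higher and 0 lower) and 0.00 at 4 h (10 compared, 4 higher and 4 lower). TFAM, the packaging and transcription factor of mitochondrial DNA, was at 1.17, 4.26, 1.84 and 3.10 FPKM (1.87 and 0.75), SSBP1, its single-strand binding protein, at 143, 154, 111 and 259 FPKM (0.11 and 1.22), and PPRC1, a coactivator, at 7.33, 3.71, 8.76 and 2.54 FPKM (-0.98 and -1.79).

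The mitochondrial aminoacyl-tRNA synthetases had medians of -0.22 at 2 h (10 compared, 1 called higher and 2 lower) and 0.16 at 4 h (12 compared, 2 higher and 2 lower). CARS2 was at 26.6, 13.4, 29.7 and 8.95 FPKM (-0.99 and -1.73), FARS2 at 20.8, 7.15, 11.7 and 8.47 (-1.54 and -0.46), RARS2 at 1.85, 3.19, 1.74 and 3.01 (0.79 at each time) and YARS2 at 2.40, 4.92, 2.04 and 3.66 (1.03 and 0.84).

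The members were last set beside the nuclear genes of the respiratory chain and ATP synthase, which work with the products of this ribosome, and beside the cytosolic ribosomal proteins. Median log2 ratios at 2 h and 4 h were -0.11 and 0.32 for the members, -0.12 (70 compared) and 0.27 (74 compared) for the respiratory chain, and -0.22 (78 compared) and 0.31 (80 compared) for the cytosolic ribosome. At 4 h 25.7% of the respiratory chain genes and 25% of the cytosolic ribosomal protein genes were called higher, and 5.41 and 3.75% lower, beside 27.4 and 8.22% of the members. At 2 h 18.8% of the members were called higher, beside 15.7% of the respiratory chain and 6.41% of the cytosolic ribosomal protein genes, and 4.35, 8.57 and 3.85% were called lower. None of these differences between the groups was tested. The median GC content of the genes compared at 4 h was 49.5% for the members and 47.7% for the cytosolic ribosomal protein genes. Respiratory chain genes with the highest mean ratios over both times were ATP5E (88.6, 225, 128 and 367 FPKM, 1.35 and 1.52) and NDUFS4 (17, 50.2, 28.6 and 80.5 FPKM, 1.57 and 1.49), and those with the lowest were ATP5D (124, 24.6, 60.4 and 18.7 FPKM, -2.34 and -1.69) and NDUFV1 (215, 65.4, 116 and 40.1 FPKM, -1.72 and -1.53). Among cytosolic ribosomal proteins, RPL6 (464, 1299, 425 and 1497 FPKM, 1.48 and 1.82) and RPL5 (1292, 3129.9, 1289 and 3306 FPKM, 1.28 and 1.36) were highest, and RPL28 (5849.9, 3198, 9446 and 3155 FPKM, -0.87 and -1.58) was lowest. The cytosolic ribosome made up 36.8 to 39.9% of all FPKM and the respiratory chain 2.71 to 3.41%, so the members, at 0.651 to 0.728%, were the smallest of the 3 by summed level in every library.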

How the data were processed

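The authors isolated poly(A) RNA, amplified the cDNA by PCR, sequenced it on SOLiD 3 and mapped the reads to hg19 (GRCh37), with TopHat and Cufflinks named in the submitters' processing notes and Bowtie and Cufflinks in the study's text. The deposited mRNA table holds FPKM per gene without read counts, so the reads behind a gene are unknown and no counting error was calculated. The 3 miRNA tables were not used.

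Log2 ratios were taken for genes above 0 in both libraries with a mean of at least 1 FPKM, without a pseudocount, and all genes of the table that passed gave the background. With 1 library per condition no test was made. A gene was called at 2-fold. GC content and length were those of the canonical transcript in GENCODE 44 lifted to GRCh37 by its makers, and 74.5% of the table's genes matched. Scripts ran in Python 3.11.15 with numpy and pandas, and were tested on simulated data.

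The genes named were a list of members with a known role, the 5 highest and 5 lowest by mean log2 ratio over both times among members at 1 FPKM or more in every library, the 5 highest by mean level and every member listed at 0. The 2 highest and 2 lowest of each other list were added, apart from 1 gene that is not reported here, and members called or counted were named where their group was small. Members and lists were chosen with earlier results of these data known.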

Additional observations from a re-analysis of the deposited data

Results flagged for a closer look

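The median log2 ratio of the members had opposite signs at the 2 times, -0.11 at 2 h and 0.32 at 4 h, a difference of 0.43. The same held for the large subunit (-0.18 and 0.12, a difference of 0.31) and for the small subunit (-0.06 and 0.57, a difference of 0.62). Among members without an overlapping coding gene or named pseudogene the signs did not differ. Their medians were -0.05 (18 genes) and -0.04 (19 genes), with -0.20 and -0.08 for the large and 0.32 and 0.48 for the small subunit. Of the named members with ratios of at least 0.5 on both sides of 0, MRPL44 was lower at 2 h (-0.53) and higher at 4 h (0.59), a difference of 1.12, at levels of 1.68 to 3.63 FPKM. With 1 library per condition none of these differences was tested.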

How the results depend on the processing

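The 12 results were recomputed under up to 8 planned settings, covering the filter on low values, a pseudocount of 1, 2 scalings, the membership of the subunits and the mean in place of the median, and under 3 settings added after the data were seen. Of 88 values, 77 kept their sign and stayed within the 95% rank interval over genes (medians and their differences) or within 1.5 times the value (counts and sums). That interval is wide and treats genes as replicates, so it says little about stability. With ratios centred within twentieths of GC content, members at least 2-fold higher numbered 7 instead of 13 at 2 h (all genes 19.4%) and 9 instead of 20 at 4 h (all genes 9.33%), and those lower 8 instead of 3 (17.5%) and 1 instead of 6 (10.4%). The large minus small difference became 0.08 at 2 h and 0.06 at 4 h, while at 2 h it was -0.24 with the other mitoribosomal proteins added, -0.39 as a difference of means and -0.52 among members without an overlapping coding gene or named pseudogene. With the libraries scaled to the same median FPKM, 1 member instead of 6 was at least 2-fold lower at 4 h (all genes 18%), as that scaling moved the median of all genes from -0.35 to -0.03, and the ratio of the summed levels was 0.14. Without MRPS12 and MRPL55 that ratio was -0.10 at 2 h. The members' ratio at 2 h was 0.16 as a mean, and in members without overlap or pseudogene the 4 h median was -0.04 (19 genes). Other causes were not tested. No paired analysis was possible because each condition has 1 library, and for the same reason no replicate could be left out. Low members such as MRPL39 and MRPL42 were not compared.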
